A study of Drosophila melanogaster with 14 samples.

Results

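The genes nubbin (nub) and POU domain protein 2 (pdm2) lie next to each other on chromosome arm 2L of Drosophila melanogaster, and their chromatin was followed here in wing imaginal discs, the larval epithelium from which the adult wing develops. The assay was ATAC-seq, which uses a transposase to cut accessible DNA and tag it for sequencing. Nucleosome-free peaks come from short fragments of open DNA, and mononucleosome peaks from fragments long enough to wrap 1 nucleosome. Nucleosome-free peaks of all 14 libraries were merged where they overlapped or touched, and the regions between the first and last base of the gene pair, extended by 10 kb on each side, were taken (dm6, 2L, 12577625 to 12696306, 118.7 kb). This gave 47 of the 33226 regions of the genome, and no region crossed the edge of the span. The same span held 34 of the 19757 mononucleosome regions.

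All discs were from larvae of the third instar, with 10 discs for each genotype and condition, and there were 2 libraries in each of 7 groups. Regenerating discs were collected at 0, 15 and 25 h after apoptosis was induced. L3 discs were undamaged and carry no time in the labels, and control discs were held under the same conditions at 0, 15 and 25 h with no cell death induced. The study asks how accessibility changes over this course. The labels call regeneration and control separate genotypes without giving the alleles, so genotype and damage cannot be told apart, and neither the driver nor the death-inducing gene is given in the sources used here. Replicates are known by number only, so p-values measure the spread between libraries, which may be technical. The lists held 19174 to 24139 nucleosome-free and 11145 to 13387 mononucleosome peaks per library. They carry no read counts, so sequencing depth is unknown. In these bulk samples, fewer cells of a type and less accessibility per cell cannot be told apart. Peaks within 200 bp of a transcript start were present in all 14 libraries for 6 of 6 wing epithelium markers (nub, vg, sd, ap, rn and dve). The myoblast markers zfh1 and Mef2 also had them in all 14, with twi in 13 and Him in 10. Tracheal trh had one in 14 libraries and btl in 12. Of the hemocyte markers srp had one in 12 libraries while Hml, NimC1 and Pxn had none, and the fat body markers Lsp2 and Fbp1 had none. A peak at a start is not a measure of expression. Of these markers nub is itself a gene of the locus described here, so it adds no separate evidence.

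nub and pdm2 encode closely related POU homeodomain transcription factors, whose family binds the octamer motif. nub is expressed in the wing pouch and is required for growth and patterning of the wing and its hinge, and it gives a longer and a shorter protein from separate promoters, with opposite effects on immune genes. pdm2 overlaps with nub in part of its functions and both act in the temporal series of embryonic neural stem cells. nub (12587625 to 12628135, + strand) has annotated transcript starts at 12587625 (nub-RB), 12618345 (nub-RD) and 12618783 (nub-RE). pdm2 (12657165 to 12686306, + strand) lies 29029 bp further on and starts at 12657165 (pdm2-RD), 12657722 (pdm2-RC), 12657824 (pdm2-RB) and 12678604 (pdm2-RA). Ref2, which encodes an RNA export factor, starts between the genes and runs on the opposite strand across the end of nub.

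The sequences below carry the motif content described further on. The first is from the far upstream edge of the span and is shown for its octamers (ATGCAAAT on either strand, in capitals). The second is the region upstream of nub-RB that was lost with damage at 15 h, with a match to TGANTCA, the motif of AP-1, in capitals. The other 4 are from regions at or near nub and pdm2 starts and are shown for their GAGAG repeats, the motif of GAGA factor, which is known for keeping promoters open (GAGAG or its reverse complement CTCTC in capitals). All are dm6, + strand, 5′ to 3′, from the reference genome.
Upstream of nub, chr2L:12577863-12578061: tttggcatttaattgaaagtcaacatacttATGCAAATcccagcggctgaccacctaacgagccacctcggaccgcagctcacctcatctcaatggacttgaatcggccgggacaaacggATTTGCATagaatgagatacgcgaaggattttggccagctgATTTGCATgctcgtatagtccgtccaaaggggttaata
Lost at 15 h, chr2L:12586093-12586331: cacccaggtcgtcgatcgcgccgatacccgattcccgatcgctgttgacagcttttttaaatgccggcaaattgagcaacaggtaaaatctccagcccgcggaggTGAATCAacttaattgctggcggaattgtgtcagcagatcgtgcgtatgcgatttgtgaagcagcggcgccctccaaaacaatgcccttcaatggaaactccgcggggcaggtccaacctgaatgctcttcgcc
Before nub-RB, chr2L:12587202-12587351: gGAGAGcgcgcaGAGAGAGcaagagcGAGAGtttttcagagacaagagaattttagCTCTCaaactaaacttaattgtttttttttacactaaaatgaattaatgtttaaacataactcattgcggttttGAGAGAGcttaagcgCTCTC
Before nub-RD, chr2L:12618149-12618298: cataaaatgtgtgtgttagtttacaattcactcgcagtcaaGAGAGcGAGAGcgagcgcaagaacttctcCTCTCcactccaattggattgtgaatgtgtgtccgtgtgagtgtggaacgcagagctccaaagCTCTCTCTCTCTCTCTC
Upstream of pdm2-RD, chr2L:12655879-12656028: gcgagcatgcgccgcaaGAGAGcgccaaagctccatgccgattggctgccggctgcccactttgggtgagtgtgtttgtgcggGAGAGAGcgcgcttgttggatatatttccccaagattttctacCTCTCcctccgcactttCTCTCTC
Before pdm2-RA, chr2L:12678394-12678603: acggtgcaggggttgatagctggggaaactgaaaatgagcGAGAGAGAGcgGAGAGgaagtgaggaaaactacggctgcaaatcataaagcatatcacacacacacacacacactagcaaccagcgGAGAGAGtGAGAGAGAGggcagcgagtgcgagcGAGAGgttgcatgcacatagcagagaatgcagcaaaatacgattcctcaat

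The locus held many accessible regions, and 23 of its 47 were open in every library. It held 39.6 nucleosome-free regions per 100 kb, against 24.8 per 100 kb over the genome, a density within the range of 9 wing fate genes with 10 kb on each side (27.2 per 100 kb at dve to 58.1 at ap). Of its bases, 14.1% lay in a region, against 6.14% of the genome. Its regions had a median width of 298 bp, against 188 bp for all regions, and 3 of them reached 1000 bp, a width that 0.460% of all regions reached. The 23 regions with a peak in all 14 libraries were 48.9% of the locus, against 40.8% of all regions. A further 19 were in 2 to 13 libraries, and 5 (10.6%) were in 1 library, against 15.0% of all regions. The number of locus regions per library had a median of 34 (32 to 38) over the 6 regenerating libraries and 34.5 (28 to 37) over the 6 control libraries, and the ranges overlapped. The lowest of these, 28, was control 0 h replicate 1, which also had the shortest nucleosome-free list.

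**Figure D1:**
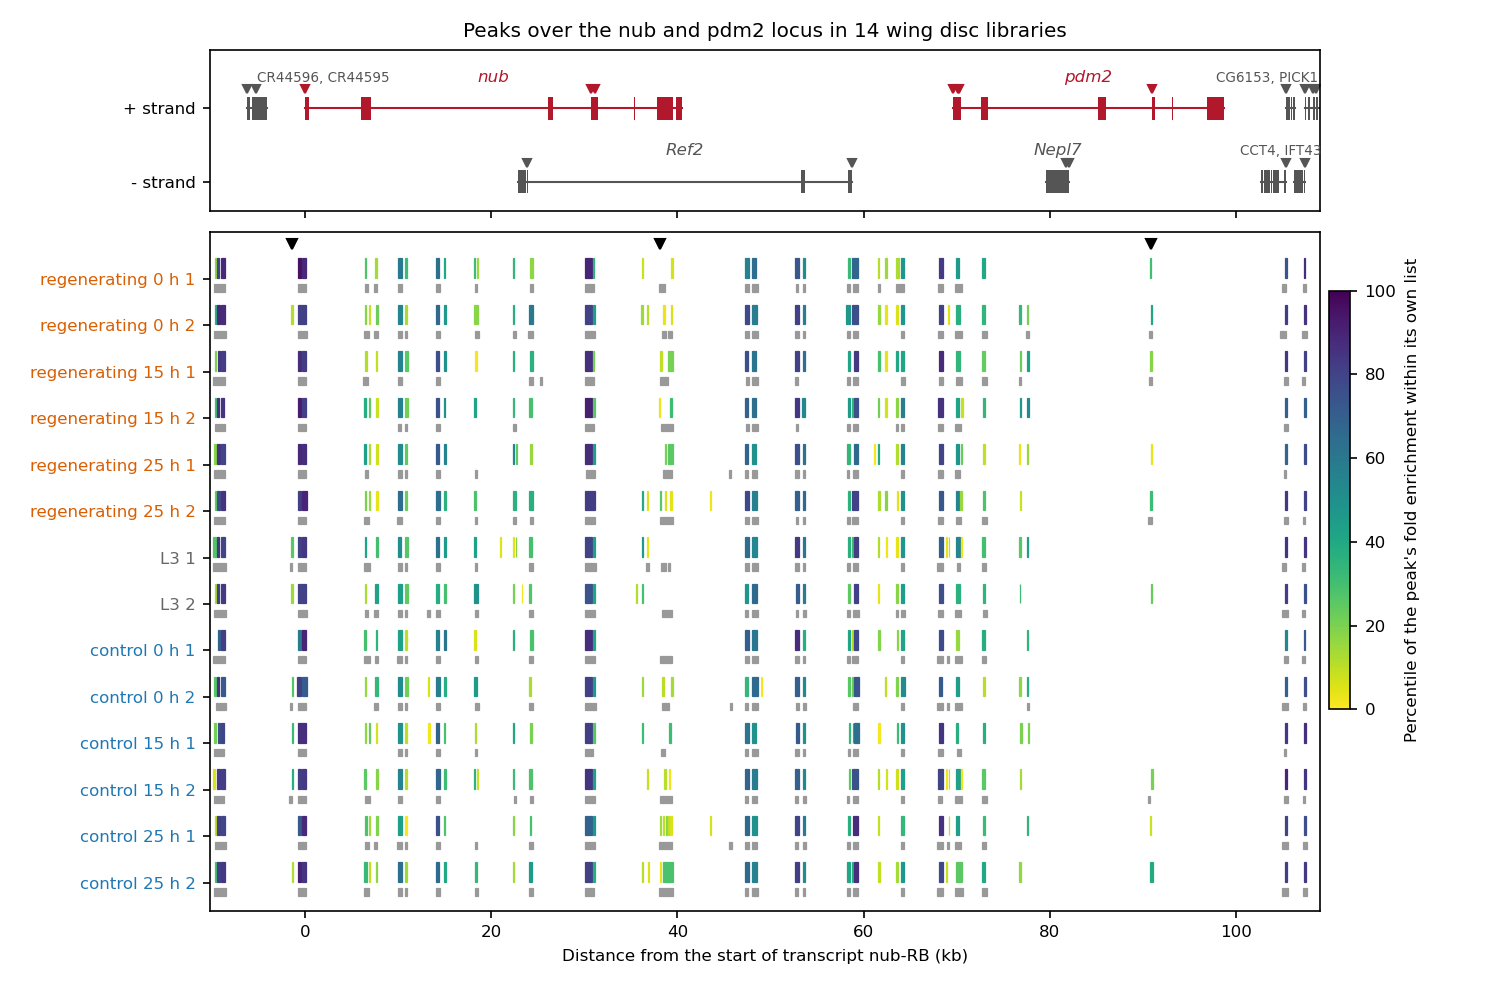
Map of the locus, with distance from the start of nub-RB in kb on the horizontal axis, gene models above (boxes are exons, triangles transcript starts, nub and pdm2 in red) and 1 row per library below. Coloured bars are nucleosome-free peaks shaded by the percentile of their fold within their own list, grey bars are mononucleosome peaks, and black triangles mark the 3 regions gained or lost with damage; dark bars stand at the same places in all 14 rows.

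Regions present in all libraries mostly ranked above the others. Each deposited peak carries the authors' fold enrichment over the peak caller's background, and it was read only as a percentile within its own list (100 is the strongest peak). The 23 regions in all libraries had median percentiles of 17.5 to 87.9, and 14 of them were above 50. The 24 other regions had median percentiles of 1.41 to 34.8, and 0 were above 50. Presence in a list and rank within it rest on the same peak signal, so they are not independent. The same shares over all regions were not computed, so this order cannot be called particular to the locus. By nearest transcript start, 14 regions (6 in all libraries) fell to nub, 7 (4) to pdm2 and 19 (9) to Ref2. Of the 19, 8 lay inside nub, whose long intron holds 1 of the Ref2 starts.

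The region over the start of nub-RB, the distal nub promoter, was the strongest element. Its region (12586805 to 12587810, 1006 bp, over the start and the first bases of the 5′ UTR) had percentiles of 95.4 and 80.8 in regenerating discs at 0 h, 87.3 and 92.6 at 15 h, then 88.5 and 89.6 at 25 h, 83.8 and 80.3 in L3 discs, and 89.9 and 81.5, 86.5 and 82.8, and 88.5 and 90.5 in control discs at 0, 15 and 25 h. By its strongest peak the region ranked in the top 20% of every list. It was the top region of the locus in 8 of 14 lists. The authors' fold of that peak was 11.5 to 17.0. In most libraries the region held a peak over the start and another that ended upstream of it. The upstream peak was the stronger in regenerating 0 h replicate 1 (95.4 against 88.5) and control 0 h replicate 2 (81.5 against 71.5). It was also the stronger in regenerating 15 h replicates 1 (87.3 against 82.2) and 2 (92.6 against 81.1). The same held in regenerating 25 h replicate 1 (88.5 against 86.8) and control 25 h replicate 2 (90.5 against 84.7). In these libraries the percentile given for the region is that of a peak that ended upstream of the start. The peak over the start was the stronger in replicate 1 of control 0 h (89.9 against 58.3) and 25 h (88.5 against 72.3). It was also the stronger in replicate 2 of regenerating 25 h (89.6 against 81.3) and of control 15 h (82.8 against 81.9). L3 replicate 1 had the same order (83.8 against 80.9). The mononucleosome region over the same start (12586862 to 12587808) was at percentiles 92.5 to 97.8 of the mononucleosome lists and present in all 14.

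The 2 proximal nub starts, nub-RD and nub-RE, shared a region of 1149 bp (12617656 to 12618804), which lies in nub and Ref2 introns and the nub 5′ UTR. Its percentiles were 89.4 and 80.1 in regenerating discs at 0 h, 86.2 and 91.2 at 15 h, then 87.5 and 82.2 at 25 h, 80.0 and 75 in L3 discs, and 87.0 and 81.0, 81.3 and 84.7, and 69.0 and 80.8 in control discs at 0, 15 and 25 h. It was present throughout, and the distal region ranked above it in 13 of 14 lists. In every library but regenerating 25 h replicate 2 the region held 2 separate peaks. The percentiles given are those of the stronger peak, which lay over nub-RD. The weaker peak, at or just before nub-RE, ranked at 21.0 (regenerating 15 h replicate 1) to 46.4 (control 25 h replicate 1). The mononucleosome region over these starts (12617714 to 12618861) had percentiles of 93.4 and 92.5 in regenerating discs at 0 h, 94.7 and 94.8 at 15 h, then 95.8 and 94.2 at 25 h, 89.0 and 84.7 in L3 discs, and 92.4 and 86.1, 90.6 and 89.7, and 85.9 and 90.5 in control discs at 0, 15 and 25 h. All 6 regenerating libraries stood above all 6 control and both L3 libraries, the lowest regenerating value (92.5) next to the highest control value (92.4). Among locus regions with peaks in all 12 time-course libraries, 1 of 14 mononucleosome regions was parted in this direction (0.461% of all such regions in the genome) and 0 in the other (0.395%). Of the nucleosome-free regions 0 of 23 were parted with regenerating libraries higher (1.07%) and 0 with them lower (0.424%). This parting was noticed after the values were seen and was not tested, and percentiles of lists of unequal length do not measure a change.

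The pdm2 start regions ranked lower than the nub start regions in the same lists, each by its strongest peak. The region over pdm2-RC and pdm2-RB (12657533 to 12658236, 704 bp, 5′ UTR and intron) had percentiles of 46.4 and 36.5 in regenerating discs at 0 h, 34.1 and 41.7 at 15 h, then 47.3 and 54.6 at 25 h, 54.5 and 36.0 in L3 discs, and 15.7 and 44.9, 37.3 and 42.8, and 44.1 and 25.3 in control discs at 0, 15 and 25 h. It was present in all 14 libraries and ranked below both nub start regions in 14 of 14 lists. No region lay within 200 bp of pdm2-RD, and the nearest was 338 bp away (12656730 to 12656827), in 4 libraries. The strong element on the pdm2 side lay 1034 bp upstream of pdm2-RD, between the genes (12655653 to 12656131, 479 bp). Its percentiles were 82.8 and 80.3 in regenerating discs at 0 h, 87.7 and 85.8 at 15 h, then 79.6 and 72.9 at 25 h, 70.4 and 76.3 in L3 discs, and 77.4 and 71.4, 84.5 and 79.9, and 85.9 and 78.1 in control discs at 0, 15 and 25 h. Over the 3 times together, the ranges of the 6 regenerating and 6 control libraries overlapped in each of these 4 nucleosome-free regions. Within single times, by the strongest peak of each region, both regenerating libraries stood above both control libraries in some comparisons. These were the nub-RB region at 15 h and the nub-RD and nub-RE region at 15 and 25 h. The others were the element upstream of pdm2-RD at 0 and 15 h and the pdm2-RC and pdm2-RB region at 25 h. At the remaining times the libraries overlapped. Peaks over the nub-RB start itself stood in the reverse order at 15 h. They were at 82.2 and 81.1 in regenerating discs and 86.5 and 82.8 in control discs. In control replicate 1 (86.5) that peak was joined with the upstream peak. With 2 libraries against 2 these differences were not tested. The share of all regions with such an order at a single time was not computed, so they show no trend with damage.

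The region at the start of pdm2-RA, the internal promoter of pdm2, was variable. Its region (12678394 to 12678661, 268 bp, intron and 5′ UTR) had percentiles of 30.3 and 41.2 in regenerating discs at 0 h, 18.2 and no peak at 15 h, then 3.90 and 31.6 at 25 h. In L3 discs it had no peak and 23.1. In control discs it had no peak in either 0 h library, no peak and 20.7 at 15 h, then 8.19 and 38.8 at 25 h. It was thus present in 5 of 6 regenerating, 1 of 2 L3 and 3 of 6 control libraries, and ranked below the 2 nub start regions in all 9 lists that had it. Its −log10 q was 7.05 and 12.5 in the regenerating libraries at 0 h, and 3.39 and 9.15 in the control libraries at 25 h. These are different times, and with depth unknown these values do not measure a difference with damage. At 25 h the percentiles of regenerating (3.90 and 31.6) and control libraries (8.19 and 38.8) overlapped. Only the peaks of control 15 h replicate 2 and control 25 h replicate 2 reached the start itself. In the other libraries with a peak it ended upstream of the start. Mononucleosome peaks overlapped the region in 4 libraries.

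**Figure D2:**
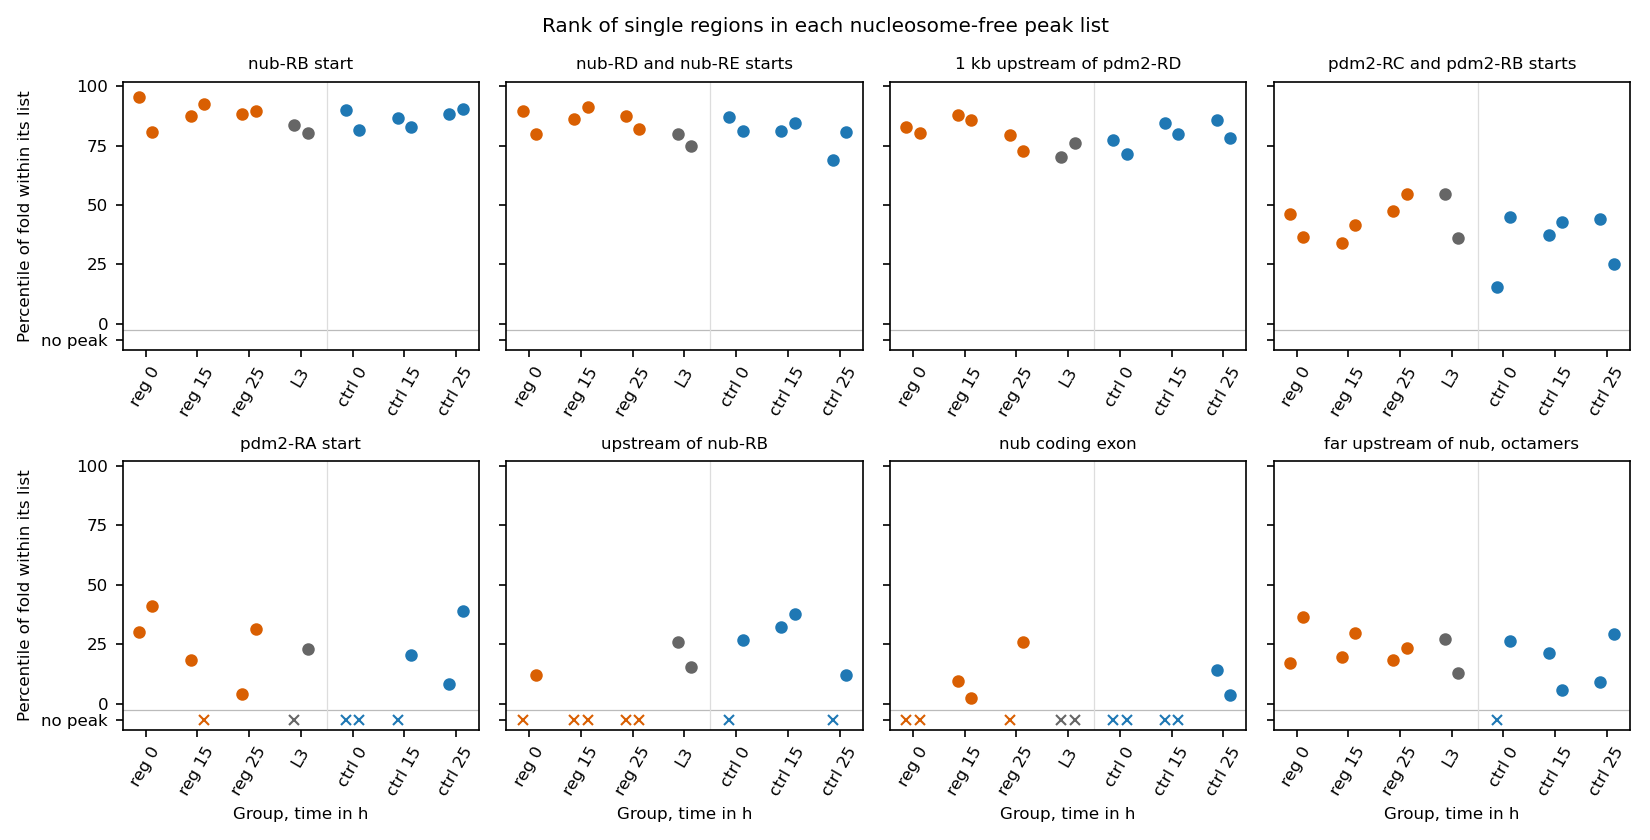
Percentile of the authors' fold within each nucleosome-free list for 8 regions of the locus, with regenerating (orange), L3 (grey) and control (blue) libraries from left to right and time in h; each point is 1 library and a cross marks a library with no peak. The nub-RB region lies between 80.3 and 95.4 in all 14 libraries, while the pdm2-RA region has a peak in 9.

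The other regions among the 5 strongest were not at nub or pdm2 starts. A pair of intergenic regions near the upstream edge of the span (12578191 to 12578454 and 12578604 to 12579042) had median percentiles of 81.8 and 81.7, with a long noncoding RNA gene (lncRNA:CR44596) as nearest start. The shared start of CCT4, a chaperonin subunit gene, and CG6153 (12692882 to 12693040) had a median of 81.7. All 3 were in all 14 libraries and overlapped mononucleosome peaks in all 14.

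Few regions of the locus were parted by damage at single times. A region was called gained at a time with peaks in both regenerating and in neither control library, and lost with peaks in both control and in neither regenerating library. At 0 h, 1 of 40 locus regions was gained, against 4.48% of all regions, and 0 were lost, against 0.691%. At 15 h, 1 of 41 was gained (background 2.59%) and 1 was lost (2.06%). At 25 h, 0 of 42 were gained (4.34%) and 0 lost (1.09%). These shares lie near or under the background, so they mark nothing particular to the locus. With 2 libraries against 2, no permutation p-value at 1 time can pass 0.05.

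The region gained at 0 h was the pdm2-RA start region described above, whose peaks in regenerating discs ended upstream of the start. The region lost at 15 h lay 1294 bp upstream of nub-RB, outside any gene (12586093 to 12586331, 239 bp). In regenerating discs it had no peak and 11.9 at 0 h, and no peak in the 4 libraries at 15 and 25 h. In L3 discs it had 26.1 and 15.2, and in control discs no peak and 26.6 at 0 h, 32.4 and 37.9 at 15 h and no peak and 12 at 25 h. It was therefore in 1 of 6 regenerating, 2 of 2 L3 and 4 of 6 control libraries. The region gained at 15 h (12625625 to 12625913, 289 bp) lay in a coding exon of nub and an intron of Ref2, with percentiles of 9.45 and 2.60 in regenerating discs at 15 h and no peak and 26.1 at 25 h. In control discs it had peaks at 25 h only, at 14 and 3.60, and the regenerating 0 h, L3 and other control libraries had none. The peaks of the 2 regenerating libraries at 15 h did not overlap. They fell in 1 region only through the peak of control 25 h replicate 2, which joined them. This low-ranking call ended when that library was left out and when peaks had to reach a −log10 q of 5. It also ended when lists were shortened to equal length and when peaks had to cover 50% of the region. The other calls held under the stricter q and equal lengths and ended under the 50% rule.

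Over the 3 times, presence was compared between regenerating and control discs in 1 test. An exact permutation test over 216 within-time label orders was run on each of the 18797 nucleosome-free regions that varied among the 12 time-course libraries, two-sided, with Benjamini-Hochberg adjustment over all of them. The smallest p these orders allow is 0.00926, and an adjusted p of 0.05 would need 3481 regions at that floor, where 69 stood. The exact permutation test therefore could hardly call a region after adjustment, and it called 0 in the genome (smallest adjusted p 1), while 241 (1.28%) had an unadjusted p under 0.05. Of the 21 locus regions tested, 0 had an unadjusted p under 0.05. In that exact permutation test the p was 0.5 for the pdm2-RA start region, 0.278 for the region upstream of nub-RB and 1 for the nub coding region. The smallest p in the locus was 0.25 (12649942 to 12650141, between Ref2 and pdm2, in 5 regenerating and 2 control libraries). A p of this size does not show that regenerating and control discs were alike.

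The region after the coding call, 12625948 to 12627139 (1192 bp, nub coding exon and 3′ UTR), had no peak in L3 discs. Its percentiles were 6.92 and 6.02 in regenerating discs at 0 h, 20.5 and 30.9 at 15 h, then 25.5 and 5.33 at 25 h, against no peak and 13.7, 31.3 and 10.7, and 17.9 and 28.5 in control discs at 0, 15 and 25 h. Neither L3 library had a nucleosome-free peak there, although mononucleosome peaks overlapped it in all 14 libraries, L3 included. Their percentiles were 9.40 and 10.0 in L3 and 4.24 to 42.2 over all libraries. In some libraries these peaks overlapped only part of the region.

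Comparisons of L3 with control discs and between times also parted few locus regions. They count both directions together, whereas the counts with damage were given by direction. With either direction counted, L3 discs were parted from control discs at 0 h in 0 of 43 locus regions (background 3.82%), from control discs at 15 h in 1 of 43 (4.08%, the nub 3′ region) and from control discs at 25 h in 3 of 44 (6.01%). These 3 were the nub 3′ region, the nub coding region and another nub coding region at 12594463 to 12594621, each present at 25 h in control discs and absent from L3. Control discs at 15 h differed from control discs at 0 h in 0 of 41 regions (4.54%). Control discs at 25 h differed from those at 0 h in 3 of 43 (4.57%). These were both nub coding regions and the pdm2-RA start region, each with peaks at 25 h. Regenerating discs at 15 h were parted from those at 0 h in 2 of 39 regions (4.68%), the nub coding region gained and a nub intron region (12623747 to 12623926) that had no peak at 15 h. At 25 h, 0 of 41 differed from 0 h (3.83%). Comparisons with the same group share its libraries, so the recurrence of a region among them is not independent.

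**Figure D3:**
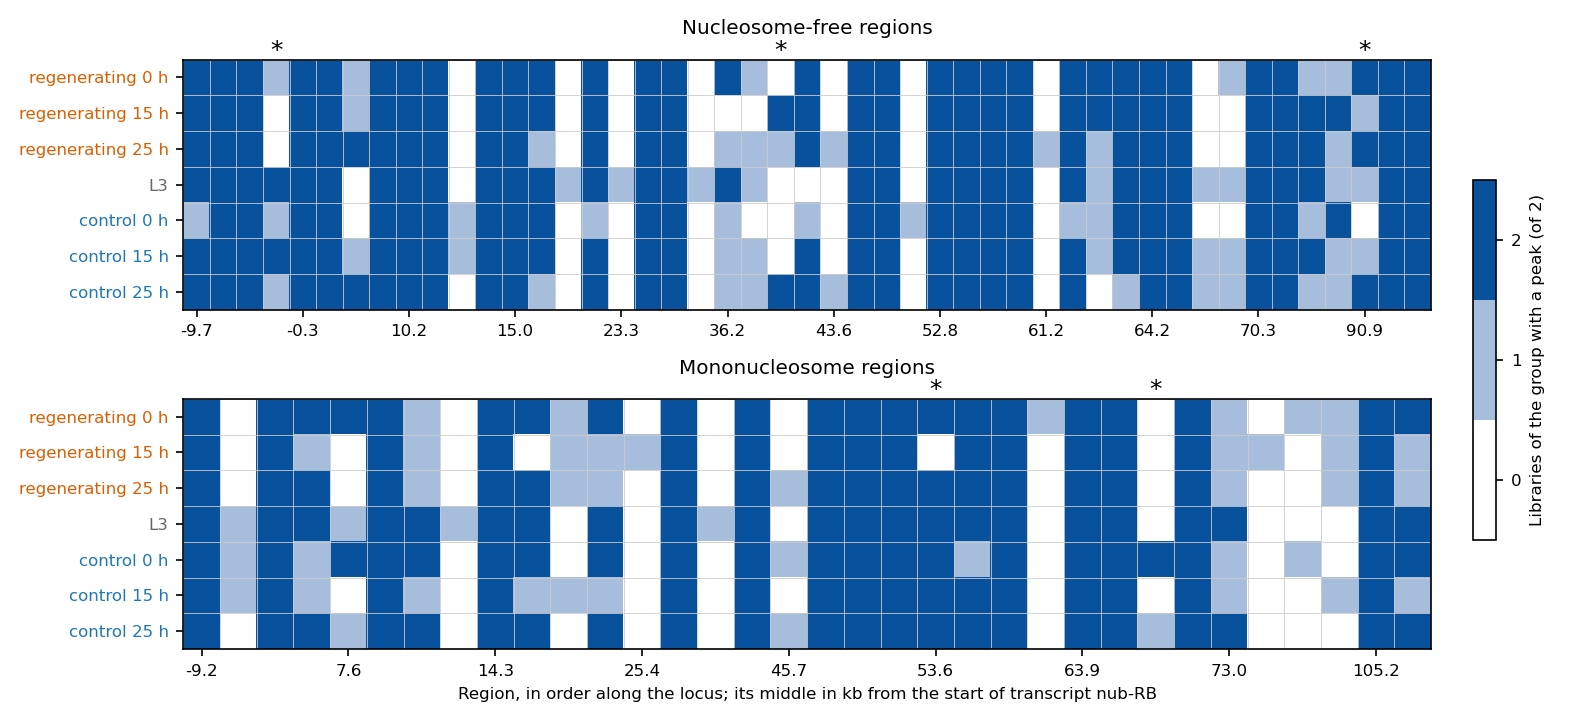
Number of libraries with a peak (0, 1 or 2) in each of the 7 groups, for the 47 nucleosome-free regions (upper panel) and 34 mononucleosome regions (lower panel) in order along the locus; columns are labelled at intervals by distance from the start of nub-RB in kb. Asterisks mark regions gained or lost with damage, 3 in the upper panel and 2 in the lower, and full dark columns are regions present in all 14 libraries (23 and 14).

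Mononucleosome peaks stood over most of the constant nucleosome-free regions. Of the 34 mononucleosome regions 14 (41.2%) were in all libraries, against 38% of all mononucleosome regions, and the number per library had a median of 22 (17 to 26) in regenerating and 23.5 (18 to 25) in control discs. Mononucleosome peaks overlapped 16 of the 47 nucleosome-free regions in all 14 libraries and 9 in none. Of the 23 constant nucleosome-free regions 14 had such overlap in all 14 libraries, and of the 24 others 2. The share of such overlap over all regions of the genome was not computed. These overlap counts therefore cannot be called particular to the locus. With damage, 0 of 30 mononucleosome regions were gained at 0 h (background 1.53%), 0 of 27 at 15 h (3.00%) and 0 of 27 at 25 h (2.83%). Lost were 1 of 30 at 0 h (1.87%), 1 of 27 at 15 h (1.23%) and 0 of 27 at 25 h (2.86%). The same exact permutation test gave 99 of 11638 mononucleosome regions in the genome (0.851%) and 0 of 18 in the locus with an unadjusted p under 0.05, 0 of them at an adjusted p of 0.05 (24 regions stood at the floor of 0.00926, and 2156 would be needed), with a smallest locus p of 0.167.

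The mononucleosome region lost at 15 h lay in an intron and 5′ UTR of Ref2 (12641053 to 12641435). It was absent from both regenerating libraries at 15 h and present in the other 12. Its percentiles were 54.8 and 55.4 in regenerating discs at 0 h and 27.9 and 66.8 at 25 h, 48.1 and 38.9 in L3 discs, and 59.5 and 45.8, 41 and 72.3, and 59.0 and 50.9 in control discs at 0, 15 and 25 h. The nucleosome-free region over the same bases (12641048 to 12641345) kept a peak in all 14 libraries, at 64.4 and 53.2 in the regenerating libraries at 15 h and 49.7 and 53.2 in the control libraries at 15 h. The exact permutation p over the 3 times was 0.333. The region lost at 0 h (12656535 to 12656790, 375 bp upstream of pdm2-RD) had peaks in control discs only, at 14.2 and 14.5 at 0 h and in 1 library at 25 h, 34.2, with an exact permutation p of 0.167.

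The start regions of the 2 paralogs shared GAGA repeats. GAGAG was counted on both strands, overlapping matches included. The region over nub-RB held 14 matches, that over nub-RD and nub-RE 15, the element upstream of pdm2-RD 10, that over pdm2-RC and pdm2-RB 7 and that over pdm2-RA 10. No other region of the locus held more than 2. At least 7 matches were found in 3.52% of all regions, in 4.54% of the 9980 regions within 200 bp of a start, and in 21.8% of regions that were also at least 500 bp wide, a width that 3 of these 5 reach. In the short stretches printed above, the 210 bases before pdm2-RA held 10 matches, as many as 0.825% of windows of that length centred on all regions. A stretch of 150 bases upstream of nub-RD (12618149 to 12618298) held 10 (0.581% of windows of that length). A stretch upstream of nub-RB (12587202 to 12587351) held 8 (1.03%) and one upstream of pdm2-RD 6 (2.03%). None of these 3 stretches ends at the start it is named for. The threshold of 7 and the 3 windows of 150 bases were chosen after the counts were seen. The pdm2-RA start region, in 9 libraries, carried as many repeats as the element upstream of pdm2-RD, in all 14.

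The octamer ATGCAAAT, the motif of the POU family itself, was in 2 of 47 regions (4.26%, against 2.42% of all regions). One region at the upstream edge of the span (12577781 to 12578120, 340 bp, intergenic, nearest start that of lncRNA:CR44596 at 3325 bp) held 3 matches. Only 6 of the 33226 regions (0.0181%) held 3 or more. Its percentiles were 17.0 and 36.4 in regenerating discs at 0 h, 19.6 and 29.9 at 15 h, then 18.4 and 23.6 at 25 h, 27.1 and 13.0 in L3 discs, and no peak and 26.2, 21.2 and 5.77, and 8.99 and 29.2 in control discs at 0, 15 and 25 h. It was thus a weak region, present in every library except control 0 h replicate 1, the library with the shortest list, and mononucleosome peaks overlapped it in all 14. The other octamer was in a constant region of the long nub intron (12601662 to 12602091, median percentile 66.0).

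**Figure D4:**
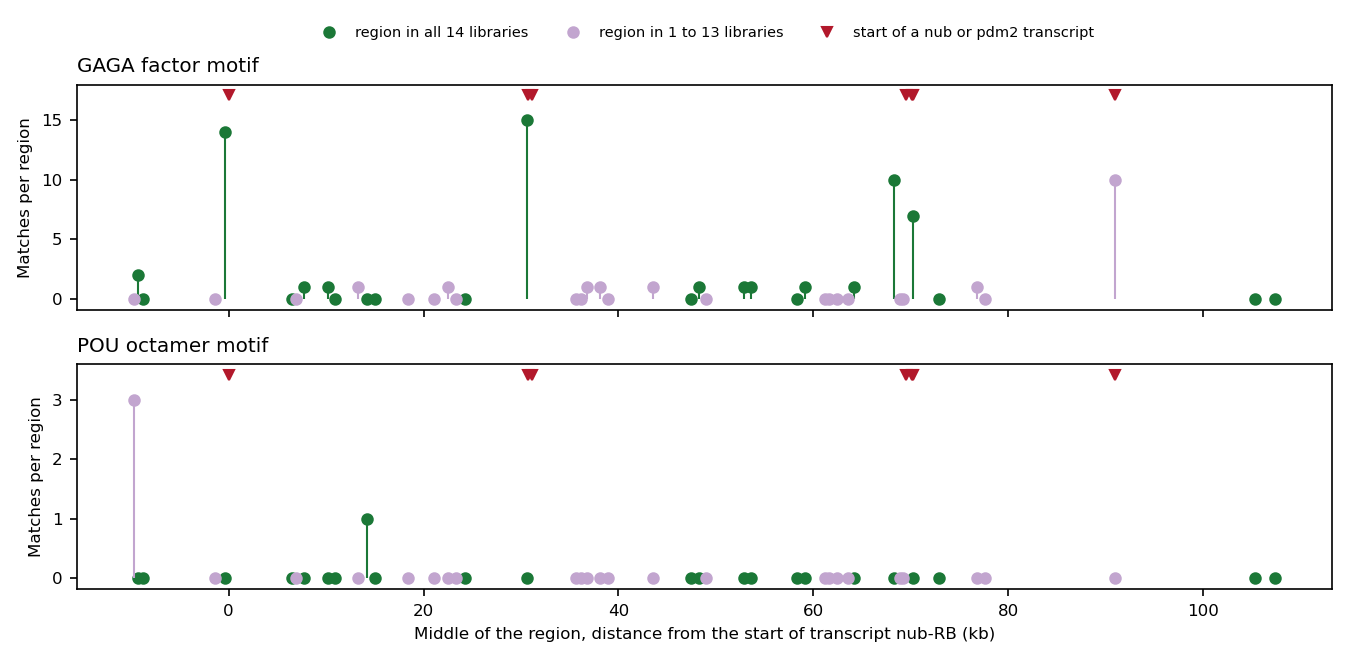
Matches per nucleosome-free region for GAGAG (upper panel) and the octamer ATGCAAAT (lower panel) along the locus, with distance from the start of nub-RB in kb on the horizontal axis; each point is 1 region, green where all 14 libraries had it and purple otherwise, and red triangles mark nub and pdm2 starts. The 5 regions with 7 or more GAGAG matches stand at or near those starts, and 1 region at the left edge holds 3 octamers.

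The other motifs were each in few regions, and their shares are not matched for the greater width of the locus regions. GGAATG, bound by Scalloped, the DNA-binding partner of Vestigial in the wing, was in 9 of 47 regions (19.1%, against 11.8% of all regions). GTGGGAA of the Notch effector Su(H) was in 4 (8.51%, against 3.31%), and the Stat92E motif TTCNNNGAA in 2 (4.26%, against 5.04%). The AP-1 motif TGANTCA, bound by the factors downstream of JNK signalling, was in 1 region (2.13%, against 5.34%). That region was the one upstream of nub-RB that was lost at 15 h, and 5.07% of windows of its length hold such a match. CAGGTAG (Zelda) was in 1 region, and AACCGGTT (Grainyhead) and TATCGATA (DREF) in 0. GAGAG in any number was in 19 (40.4%, against 36.2%). A match is a stretch of letters and says nothing on whether the factor was bound.

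Over the 14 libraries, 0 other regions in the genome had the same presence and absence as the pdm2-RA start region. For the region upstream of nub-RB there were also 0. The nub coding region gained at 15 h shared its pattern with 4 others. The 3 of them with the highest median percentile were a coding region of zfh2 on chromosome 4 (534337 to 534509), a transposable element stretch in a toy intron on chromosome 4 (999634 to 999993) and a coding region of Gld2 on 3R (22213989 to 22214235).

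Other genes of the family and of wing fate give a frame for these counts. Regions gained or lost at any time were 3 of 47 in the locus (6.38%), 3 of 39 (7.69%) within 10 kb of the other POU factor genes pdm3, vvl and acj6, 21 of 175 (12%) within 10 kb of 9 wing fate genes and 3568 of 33226 (10.7%) in the genome. Regions in all 14 libraries were 48.9% in the locus, 46.2% at the other POU genes, 44.0% at the wing fate genes and 40.8% in the genome. Within 10 kb of nub alone there were 28 regions (13 in all libraries, 2 called), and of pdm2 alone 15 (6 in all libraries, 1 called). Among the wing genes, sd, the Scalloped gene, had 23 regions with 5 called and Bx, a LIM-only cofactor gene, 39 with 6 called. vg, the partner of Scalloped, had 15 with 1 called, and wg, a Wnt ligand gene, 10 with 2 called. These shares were not tested against each other.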

How the data were processed

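Wing discs were profiled by ATAC-seq in 14 libraries of 7 groups, read from the labels. The authors deposited 1 list of nucleosome-free and 1 of mononucleosome peaks per library, called per library, and the deposited positions were used as given. STAR 2.4.0j, MACS2 and dm6 are named per the submitters' processing notes. Fragment limits, peak threshold and control track were not given in the sources used here. The authors' value per peak is a fold, a ratio to the caller's background, used only as a percentile within its list. The deposited −log10 q was at least 2.00 to 2.22 in all lists and served as a filter in 1 alternative. Peak names in mononucleosome lists carry a nucleosome-free tag, but their narrowest peak was 211 to 216 bp wide, against 75 to 79 bp, so the fragment class was taken from the list. The lists hold no counts, so no depth or counting interval can be given.

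Peaks of each class were merged where they overlapped by 1 bp or touched, and a region counted as present in a library with at least 1 peak there. Where a library had several peaks in a region, the strongest was used. Presence was tested per region with a two-sided exact permutation test within times and Benjamini-Hochberg adjustment over all regions, in Python 3.11.15 with pandas 2.3.3, numpy 2.4.6 and scipy 1.17.1 (figures with matplotlib 3.10.9), tested on simulated data. Annotation was Ensembl release 115 (BDGP 6.54), with transposable elements left out of nearest starts, and sequences came from the Release 6 genome. Named were regions within 200 bp of a nub or pdm2 start, regions gained or lost, and the 5 of highest median percentile; the octamer and GAGAG regions, the regions parted between undamaged groups or times and the region of smallest p were added after their values were seen. Members, lists and motifs were chosen with earlier results of these data known. Alternatives were a −log10 q of at least 5, lists shortened to equal length, peaks covering 50% of a region, touching peaks kept apart, no flank or 20 kb, a start window of 500 bp, a replicate block and leaving out each library.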

Additional observations from a re-analysis of the deposited data

How the results depend on the processing

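Of 392 recomputed values 355 stayed within 1.5 times the reported count or, for p-values, on the same side of the threshold, which the test could hardly pass. With a −log10 q of at least 5, 0 regions were gained at 15 h and 1 was lost at 25 h. With lists of equal length 1 region was lost at 0 h, 0 were gained at 15 h and 1 was lost at 25 h, and 2 mononucleosome regions were lost at 25 h. With peaks covering 50% of the region 0 were gained at 15 h and 1 at 25 h, and 1 mononucleosome region was lost at 25 h. That rule kept the counts at 0 h gained and 15 h lost at 1 but with other regions (12649942 to 12650141 and 12577781 to 12578120). The region lost at 25 h under the first 2 settings was a nub intron region (12595184 to 12595441) with a peak in all 14 libraries. Its −log10 q was 4.09 and 3.65 in the regenerating libraries at 25 h, under the filter of 5. In the control libraries at 25 h it was 7.05 and 6.72. Lists of equal length kept the peaks of highest −log10 q. The cause of the other shifts was not tested.

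Leaving out each library in turn gave 1 to 5 regions gained and 0 to 2 lost at 0 h, 0 to 2 gained and 1 to 4 lost at 15 h, and 0 to 3 gained and 0 to 2 lost at 25 h. Mononucleosome counts were 0 to 2 gained and 1 to 3 lost at 0 h, 0 to 2 gained and 1 to 2 lost at 15 h, and 0 to 2 gained and 0 to 3 lost at 25 h. Gained at 0 h were 4 without regenerating replicate 1 and 3 and 5 without control replicates 1 and 2 of that time. Lost at 0 h were 1 without regenerating replicate 2 and 2 without control replicate 1. At 15 h, 2 were gained without either control replicate, 4 were lost without control replicate 1 and 3 without replicate 2, and 0 were gained without control 25 h replicate 2. At 25 h, 1 and 2 were gained without regenerating replicates 1 and 2 and 3 without control replicate 2, while 1 was lost without regenerating replicate 2, 2 without control replicate 1 and 1 without control replicate 2. Leaving out a library of the compared time makes the call rest on 1 library in place of 2. Control 25 h replicate 2 held the peak that joined the 2 regenerating peaks of the 15 h gain into 1 region. The adjusted p of the test is near its upper end by design in every setting and says nothing about stability.

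Same-numbered libraries did not deviate together: the correlation of deviations was -0.0153, 0.0395 and -0.00240 at 0, 15 and 25 h for nucleosome-free regions. Permuting with the replicate block called 0 regions, with a smallest possible p of 0.0312 and a smallest locus p of 0.25 in both fragment classes. With no depth recorded, a missing peak may be a weak one.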
